A study of Arabidopsis thaliana with 12 samples.

Results

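The genes described here lay higher in slim1-1 than in wild-type Arabidopsis thaliana seedlings under cadmium and differed little between the genotypes under arsenite. They were chosen from the measured values. A gene belonged to the set if its mean log2 value under cadmium was at least 0.8 higher in slim1-1, if all 3 slim1-1 cadmium arrays lay above all 3 wild-type cadmium arrays, and if its mean difference under arsenite lay between -0.5 and 0.5. Calmodulin-like (CML), expansin (EXPA) and plant U-box (PUB) genes and 10 named loci, among them heat-stress and anthocyanin genes, were left out of the set. Of 13356 genes with a probe set of their own, 95 met the limits, 9 of these were left out by name, and 86 genes remained. The files or the RefSeq gene table gave a name with a known product to 22 of the 86. The other 64 carry a locus number alone and are given here by locus, with no role.

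The study set slim1-1 against wild type (Col-0) under each of 2 toxic metals, with 3 arrays in each of the 4 groups. Whole seedlings were 14 days old and grew on minimal medium with either 20 µM arsenite, As(III), or 100 µM cadmium. The treatment protocol names a move to arsenite for 48 hours after 12 days without treatment, and it gives no time of its own for cadmium. The mutant is represented by 1 allele, all 4 groups carried a metal, and no array held seedlings without one. Values come from the shoot and root together, so fewer cells of a type and less RNA per cell cannot be told apart. The labels do not say whether replicates came from separate cultures, so p-values measure only the spread between these samples.

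SLIM1, related to the ethylene regulator EIN3, switches genes on when sulfur runs short, and slim1 mutants respond poorly to sulfur limitation. Cadmium and arsenite both bind thiol groups, and plants trap them with glutathione and phytochelatins, peptides that draw on the sulfur supply. Cadmium also burdens plants with oxidised lipids and proteins. The genes of the set with a known product serve dehydration and stress responses, sugar and storage metabolism, conjugation of small molecules, and cell wall growth.

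Array medians lay between 6.85 and 6.94 under arsenite and between 5.58 and 5.64 under cadmium, so the 2 metals form separate sets of arrays on different levels. Differences between the metals are therefore given relative to the median difference over all genes, which was -1.14 in wild type and -1.16 in slim1-1. The probe sets of SLIM1 itself were not analysed here, so the genotype of each library was not checked. RCA, the leaf gene for Rubisco activase, was bright in all groups, with group means of 13.36 to 13.74. The slim1-1 cadmium arrays had a lower 25S ribosomal RNA signal than the wild-type ones by 0.684 (exact permutation test, two-sided p = 0.1, the smallest that 3 against 3 allows). The 3' minus 5' signal of GAPDH differed by 0.0988 and that of actin by 0.133 in the same comparison, with exact permutation p of 0.1 and 0.3. Array medians were higher in slim1-1 than in wild type by 0.0460 under cadmium and by 0.0441 under arsenite, with exact permutation p of 0.1 in each. The part of these values in the differences of the set was not tested.

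Under cadmium the 86 genes differed between the genotypes by a median of 0.957 on the log2 scale, with quartiles of 0.883 and 1.13, while the median over all genes was -0.0138. The difference reached 2-fold or more in 38 of them. It ran from 0.802 for ATC to 2.14 for AT4G33550. These values chose the set, so they are a description and carry no test. By limma with Benjamini-Hochberg adjustment over all genes, 6.62% of all genes were higher in slim1-1 under cadmium at an adjusted p under 0.05, and 5.71% were lower. All 86 genes of the set were among the higher ones, which their choice largely fixes. All 3 slim1-1 arrays lay above all 3 wild-type arrays for 15.6% of all genes, and for every gene of the set by its rule. The gap between the lowest slim1-1 array and the highest wild-type array had a median of 0.652 and ran from 0.0568 for AT1G09500 to 1.64 for AT4G33550.

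Under arsenite the same genes differed by a median of 0.00729, from -0.446 for AT4G30170 to 0.454 for AT5G39520. 44 lay above 0 and 42 below. All 3 slim1-1 arrays lay above wild type for 3 of the 86 and below it for 3, where the shares over all genes were 9.95% and 8.25%. No gene of the set passed limma under arsenite, against 1.05% of all genes, and 10 had an unadjusted p under 0.05, against 12.8% of all genes. In alternative settings up to 2 members passed on the higher side and up to 2 on the lower. Again the rule bounds this difference. Some members were also dim under arsenite, where a difference could go unseen. AT4G26950, AT5G53820, AT1G09500, AT5G66780, AT5G14650 and AT5G11930 had group means of 3.61 to 4.25 there. Those of AT2G34610, AT5G47920 and nad6 were 4.23 to 4.53. The lower quartiles of the arsenite arrays were 4.55 to 4.62. In the test of the difference between the 2 genotype effects, 53 of the 86 were higher under cadmium at an adjusted p under 0.05, where the share over all genes was 2.19%. The 2 bounds of the rule fix the sign of this difference and most of its size, so the count describes the choice of genes. The remaining 33 met the limits of the set without a detected interaction.

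The largest arsenite differences on the higher side were those of AT5G39520, AT5G53420 at 0.43 and AT1G73600 at 0.41. AT5G53420 read 7.66, 7.78 and 7.70 in wild type and 7.93, 8.21 and 8.27 in slim1-1 under arsenite, with no overlap, and 7.79, 7.84 and 7.38 against 8.69, 8.76 and 8.70 under cadmium. AT1G73600 likewise had no overlap under arsenite, at 9.11 to 9.38 against 9.53 to 9.76. On the lower side lay AT4G30170, AT4G36010 at -0.43 and AT5G10770 at -0.42.

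Near the limits the values run on without a break. Just inside the cadmium limit were ATC at 0.802 and AT1G09500 and AT1G06100, both at 0.809. Just outside were AT1G69480 at 0.794, AT4G08780 at 0.790 and LEA4-5, a late embryogenesis abundant protein, at 0.788. Just outside the arsenite bound were AT3G23170 at -0.514, HIS1-3, a linker histone, at 0.540 and AT4G33040 at 0.546. In all, 19 genes met the other limits but lay outside the arsenite bound, 14 of them above it and 5 below. Of 119 genes with a cadmium difference of at least 0.8, 3 had overlapping arrays.

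The spread between arrays was wider for these genes than for most. Their median SD over the 3 slim1-1 cadmium arrays was 0.220, and it was 0.101 over all genes. In wild type under cadmium the medians were 0.163 and 0.0909. Wild-type replicate 3 gave the lowest of the 3 cadmium values for 49 of the 86 genes, and for 35.0% of all genes. Among the slim1-1 cadmium arrays the highest value fell in replicate 1 for 32 genes, replicate 2 for 32 and replicate 3 for 22, where the shares over all genes were 41.0%, 27.95% and 31.0%.

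The rule was also applied with 1 slim1-1 and 1 wild-type cadmium array left out, in each of 9 choices, and the difference was read in the 2 arrays left out. The 9 choices share arrays and are not independent. The left-out arrays are among the cadmium arrays that chose the set of 86, so their values are a description and no replication. Anything shared by all cadmium arrays of a genotype would recur in them. They chose 86 to 115 genes each, of which 65 to 81 belong to the set of 86. In the left-out arrays the chosen genes differed by a median of 0.669 to 0.951, while the median over all genes lay between -0.0234 and 0.0100. Between 94.3% and 100% of the chosen genes were higher in the left-out slim1-1 array, against 45.4% to 51.8% of all genes. The difference between the left-out arrays was at least 0.8 for 42.6% to 66.3% of the chosen genes, against 1.09% to 1.42% of all genes. The 3 lowest medians, 0.669, 0.738 and 0.754, were those with slim1-1 replicate 3 left out. In the arrays that made the choice the medians were 0.938 to 1.00, so part of the difference was lost in arrays the rule had not used.

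**Figure D1:**
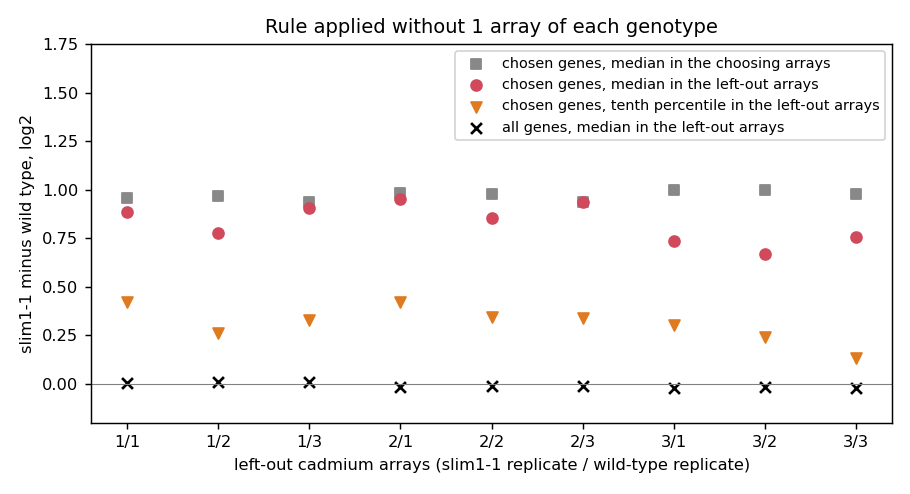
Differences between slim1-1 and wild type under cadmium (vertical axis, log2) for genes chosen without 1 array of each genotype, for the 9 choices of left-out replicates (horizontal axis). Circles are medians in the left-out arrays (0.669 to 0.951), squares medians in the choosing arrays, triangles the tenth percentile and crosses the median of all genes, which stays near 0.

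Among the dehydration and stress genes, LTI30, also called XERO2, encodes a dehydrin, a hydrophilic protein made in cold and drought. Under cadmium its log2 values were 7.68, 7.96 and 7.62 in wild type and 9.04, 8.78 and 9.29 in slim1-1, a difference of 1.28 ± 0.20 (SE). Under arsenite they were 11.10, 11.22 and 11.60 in wild type and 11.37, 11.04 and 10.50 in slim1-1, and the groups overlapped. Relative to all genes, its difference of cadmium minus arsenite was -2.42 in wild type and -0.77 in slim1-1. COR47, a second dehydrin that is no member, was 0.31 higher in slim1-1 under cadmium (limma adjusted p = 0.0487), and that call was lost in 8 alternative settings.

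STZ, also called ZAT10, is a zinc finger repressor switched on by salt, cold and other abrupt stresses. Its cadmium values were 6.98, 6.99 and 6.87 in wild type and 7.83, 8.39 and 8.22 in slim1-1, a difference of 1.20 ± 0.11 (SE). Under arsenite all 6 arrays lay between 12.74 and 13.00, so STZ was far brighter there in both genotypes, and its difference between the metals was -4.88 in wild type and -3.50 in slim1-1 relative to all genes. Among rapid stress genes listed for this work, 3 of 16 were matched to a probe set. STZ was higher in slim1-1 under cadmium. By contrast ORA47, an ethylene response factor that switches on jasmonate synthesis genes, was 1.11 lower in slim1-1 (limma adjusted p = 0.000797). WRKY53 had a difference of -0.24 that did not pass the test (adjusted p = 0.649).

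AT2G46140, listed as LEA27, belongs to the late embryogenesis abundant proteins. It read 5.74, 5.68 and 5.56 in wild type and 6.62, 6.74 and 6.48 in slim1-1 under cadmium, and the genotypes overlapped under arsenite. UPB1, UPBEAT1, is a basic helix-loop-helix factor that holds down peroxidase genes where root cells pass from division to elongation. It read 4.10, 3.72 and 3.99 in wild type against 4.59, 4.64 and 5.11 in slim1-1 under cadmium, and 6.92 to 7.68 on the arsenite arrays.

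Of the members with a known product, APL3, SWEET13, SAG29 and ICL act in sugar or storage metabolism. BGLU44 is described with them as a glycoside hydrolase, and its substrate was not examined. APL3, a large subunit of the enzyme that makes ADP-glucose for starch, read 5.31, 5.55 and 5.12 in wild type and 6.71, 6.39 and 6.29 in slim1-1, a difference of 1.13 ± 0.13 (SE). On the arsenite arrays APL3 lay between 4.87 and 5.25. Its paralogue APL4 had a difference of 0.21 under cadmium that did not pass limma (adjusted p = 0.392).

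SWEET13 and SAG29, which is SWEET15 and is known from senescing leaves, are transporters that let sucrose out of cells. SWEET13 read 5.47, 5.49 and 4.97 in wild type and 6.36, 6.41 and 5.99 in slim1-1 under cadmium. SAG29 read 6.08, 6.57 and 5.58 in wild type and 6.97, 6.90 and 6.79 in slim1-1. In both, the wild-type arrays ranged over as much as or more than their gap to slim1-1, and SAG29 lay near the limit with a difference of 0.81 ± 0.18 (SE). Of the 14 SWEET genes outside the set, 1 passed limma under cadmium, on the higher side, where 6.62% of all genes did. This was SWEET17, a fructose transporter of the vacuole, at 0.37 (adjusted p = 0.0109), a call lost without wild-type cadmium replicate 1. The median of the 14 was -0.04.

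ICL, isocitrate lyase of the glyoxylate cycle that turns stored fat into sugar, read 4.16, 4.18 and 4.21 in wild type and 5.50, 4.85 and 4.80 in slim1-1 under cadmium. BGLU44, a glycoside hydrolase of the beta-glucosidase family, read 7.60, 7.85 and 7.62 against 8.59, 8.78 and 8.71, and lay between 11.31 and 11.52 on all arsenite arrays. Of 21 other genes of that family, 5 were higher in slim1-1 under cadmium and 2 lower, where the shares over all genes were 6.62% and 5.71%, and the calls of BGLU24 and ATA27 among the 5 were each lost in 9 alternative settings. BGLU28, a sulfur limitation gene, was one of the lower ones, at -2.90 (limma adjusted p = 2.88e-05), so members of 1 enzyme family moved in opposite directions.

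**Figure D2:**
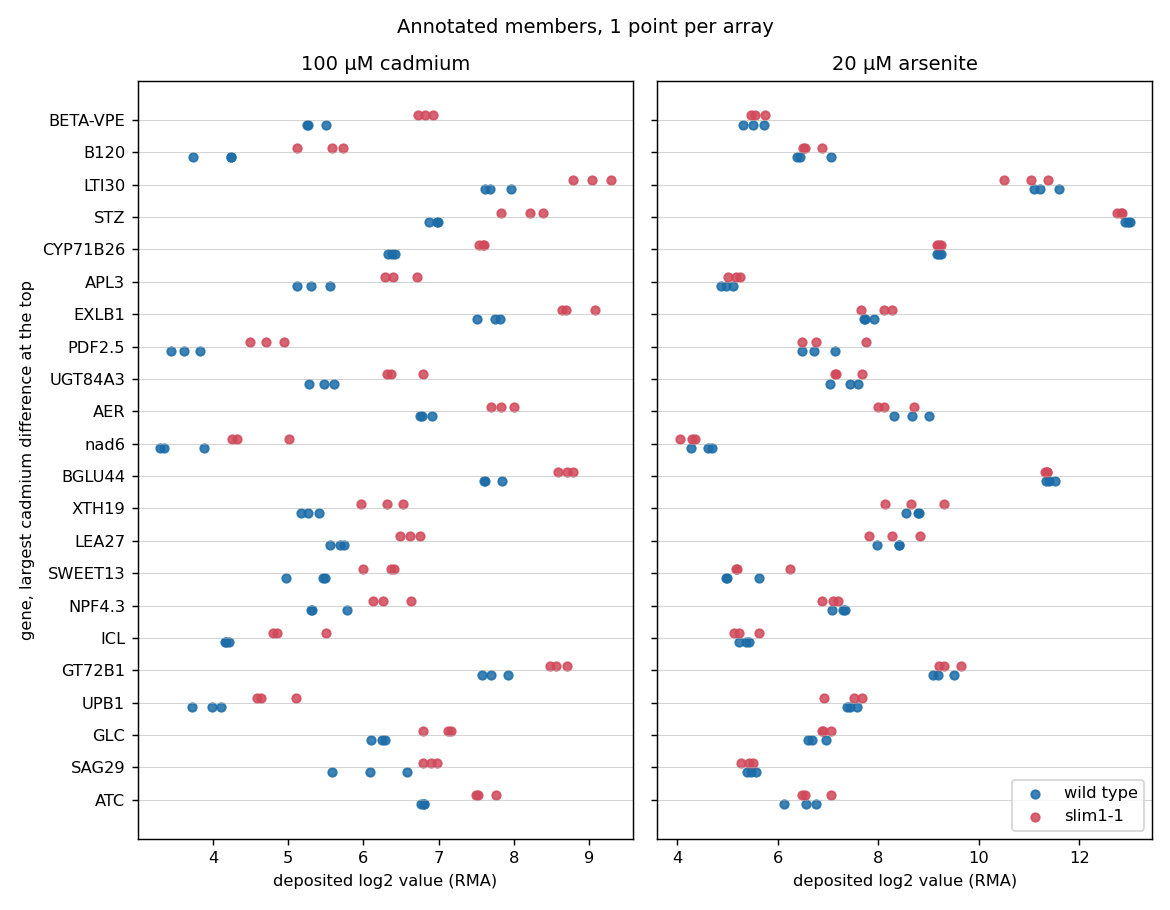
Deposited log2 values (horizontal axes) of the 22 members with a known product, 1 point per array, under cadmium (left) and arsenite (right), with wild type in blue and slim1-1 in red. Under cadmium the red points lie to the right of the blue ones in every row, as the rule requires. Under arsenite the colours mix in most rows, and STZ lies near 13 in both genotypes.

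The conjugation and detoxification genes included CYP71B26, a cytochrome P450. Its cadmium values were 6.32, 6.42 and 6.38 in wild type and 7.60, 7.53 and 7.58 in slim1-1, and its difference of 1.20 had an SE of 0.06. On the arsenite arrays it lay between 9.16 and 9.26 with no separation of the genotypes. Of 17 other CYP71B genes, CYP71B34 was higher in slim1-1 under cadmium and CYP71B23 was lower, at -0.65 (limma adjusted p = 0.00771). CYP71B34, next to CYP71B26 on the chromosome, had a difference of 0.35 (adjusted p = 0.0359), a call lost in 8 alternative settings.

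AER, an alkenal reductase that disarms reactive carbonyls from oxidised lipids, read 6.78, 6.92 and 6.74 in wild type and 7.69, 8.0 and 7.82 in slim1-1 under cadmium. Under arsenite the groups overlapped, at 8.31 to 9.02 and 7.99 to 8.72. Its neighbour AT5G16980, left out of the set by name, had a difference of 1.33 under cadmium and -0.75 under arsenite, which is outside the arsenite bound. UGT84A3, a glucosyltransferase that joins glucose to sinapate and related acids, read 5.61, 5.48 and 5.27 against 6.79, 6.36 and 6.31. GT72B1, which glucosylates chlorinated phenols and lignin precursors, read 7.69, 7.92 and 7.57 against 8.71, 8.56 and 8.48. In both, every slim1-1 cadmium array lay above wild type, and on arsenite the genotypes overlapped. Of 48 UGT genes neither in the set nor left out by name, 4 were higher and 4 lower in slim1-1 under cadmium by limma. The shares over all genes were 6.62% and 5.71%. The median difference of the 48 was -0.05, and 7 of the 8 calls were lost in at least 1 alternative setting.

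Wall genes were few among the named members. EXLB1, an expansin-like protein, read 7.51, 7.75 and 7.82 in wild type and 9.08, 8.64 and 8.70 in slim1-1 under cadmium, and 7.66 to 8.27 under arsenite. XTH19, an enzyme that cuts and rejoins xyloglucan, read 5.17, 5.40 and 5.26 against 6.52, 5.97 and 6.31. Its chromosomal neighbour XTH18 differed by 0.72 under cadmium (limma adjusted p = 0.00293) and by -0.54 under arsenite. The cadmium difference lay below the cadmium limit of the set, and the arsenite difference lay outside the arsenite bound. Of 9 XTH genes outside the set, 2 were higher and 1 was lower in slim1-1 under cadmium, against 6.62% and 5.71% of all genes.

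BETA-VPE, a vacuolar processing enzyme that matures storage and other vacuolar proteins by cutting after asparagine, had the largest cadmium difference of the named members, 1.48 ± 0.11 (SE). It read 5.25, 5.50 and 5.27 in wild type and 6.82, 6.92 and 6.72 in slim1-1, and between 5.31 and 5.75 on the arsenite arrays. On the deposited scale slim1-1 under cadmium was the 1 group of 4 that stood apart. Relative to all genes, cadmium minus arsenite in BETA-VPE was 0.96 in wild type and 2.39 in slim1-1. GAMMA-VPE, the vegetative form of the enzyme, was 0.77 higher in slim1-1 under cadmium (limma adjusted p = 0.000627). ALPHA-VPE had a difference of 0.52 (adjusted p = 0.0528) and DELTA-VPE one of -0.09, neither of which passed.

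B120, a lectin receptor kinase, read 4.23, 4.24 and 3.73 in wild type and 5.12, 5.73 and 5.59 in slim1-1 under cadmium, a difference of 1.41 ± 0.21 (SE). On the arsenite arrays it lay between 6.38 and 7.06. PDF2.5 encodes a defensin, a small secreted cysteine-rich peptide, which has been linked to cadmium tolerance. It read 3.83, 3.61 and 3.45 against 4.71, 4.94 and 4.49. Its interaction did not pass (limma adjusted p = 0.246). AT1G59740, listed as NPF4.3 of the nitrate and peptide transporter family, read 5.31, 5.32 and 5.79 against 6.64, 6.26 and 6.13.

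GLC, GLAUCE, an acyltransferase known from seed development, had a difference of 0.81 under cadmium, and its dimmer probe set gave 0.48. ATC, a relative of the flowering repressor TFL1, read 6.81, 6.80 and 6.76 in wild type and 7.76, 7.50 and 7.52 in slim1-1. The probe set labelled nad6, a mitochondrial gene for a subunit of respiratory complex I, had a difference of 1.01, but it is one that may detect more than 1 transcript and its gene had no match in the RefSeq table.

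**Figure D3:**
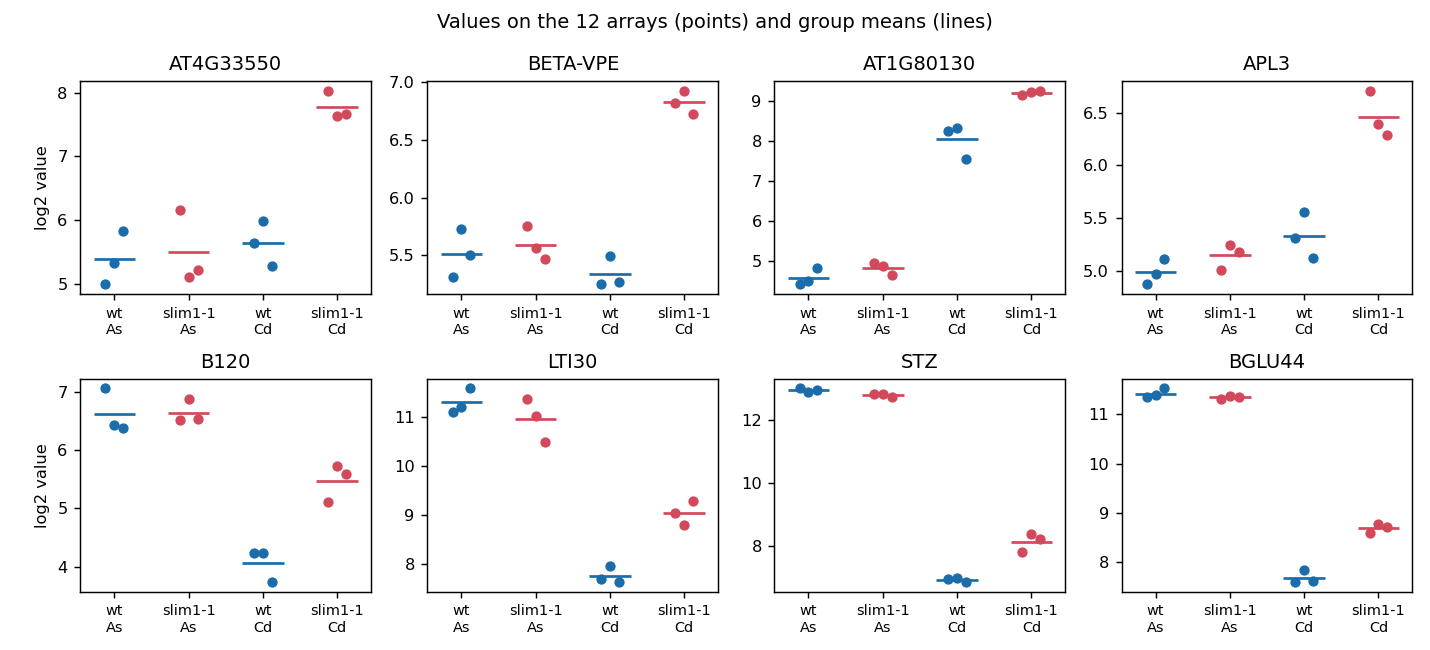
Log2 values (vertical axes, scaled per gene) of 8 members on the 12 arrays, in the order wild type and slim1-1 under arsenite, then wild type and slim1-1 under cadmium. Points are arrays and lines group means. On the deposited scale, slim1-1 under cadmium stands highest of the 4 groups in BETA-VPE and APL3. In STZ, LTI30, B120 and BGLU44 it lies between wild type under cadmium and the arsenite groups on that scale. Relative to all genes, cadmium minus arsenite in B120 was -1.42 in wild type and -0.0057 in slim1-1.

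Of the loci without a named product, AT4G33550 had the largest difference of the whole set, 2.14 ± 0.28 (SE), or 4.42-fold. It read 5.64, 5.99 and 5.28 in wild type and 8.03, 7.63 and 7.67 in slim1-1 under cadmium, and 4.99 to 6.17 under arsenite. AT5G14650 read 4.09, 4.04 and 5.08 against 5.96, 6.0 and 6.57, a difference of 1.77. In both, the arsenite arrays overlapped wild type under cadmium on the deposited scale, although the metals differ in level. Relative to all genes, cadmium minus arsenite in AT4G33550 was 1.39 in wild type and 3.44 in slim1-1. In AT5G14650 it was 1.45 and 3.25. AT5G14650 was dim under arsenite, with group means of 4.09 in wild type and 4.08 in slim1-1.

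AT3G44450 read 4.28, 3.98 and 4.17 in wild type and 5.98, 5.84 and 5.82 in slim1-1 under cadmium, and 6.78 to 7.49 under arsenite. Here wild type under cadmium was the low group, with metal differences of -1.94 in wild type and 0.07 in slim1-1 relative to all genes. AT5G04120 was the least even of the large differences, with slim1-1 values of 6.54, 4.82 and 6.44 against wild-type values of 4.58, 4.48 and 4.12, and slim1-1 replicate 2 lay close to wild type. Its difference was 1.54, and 2.1 without that replicate. The other loci among the 20 largest were AT2G37870 at 1.72, AT1G60750 at 1.49, AT1G66080 at 1.40, AT4G30170 at 1.38 and AT5G51830 at 1.23. They were followed by AT1G20070 at 1.21, AT1G19530 at 1.20, AT5G11930 and AT5G53820 at 1.19, AT3G27880 at 1.17 and AT2G32190 at 1.16.

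The rule sets no limit on where a gene lies between the metals within a genotype. It does fix the sign and most of the size of the gap between the genotypes in that position, and so between the 2 medians below. The positions use the same arrays and are given as a description. Relative to all genes, the difference of cadmium minus arsenite had a median of -0.159 over the 86 genes in wild type and 0.784 in slim1-1. The wild-type value was -0.0422 after quantile normalisation and turned to 0.0522 with array medians subtracted, so it has no settled direction. Taking a difference of 1 as the margin, 19 of the 86 were higher under cadmium in both genotypes, against 2.55% of all genes. A further 19 were within the margin in wild type and past it on the higher side in slim1-1 (1.23% of all genes). 15 were lower under cadmium in wild type and within the margin in slim1-1 (1.67%). 12 were lower in both (5.62%), and 21 stayed within the margin in both (86.7%). A genotype difference of 0.8 or more under cadmium alone moves genes away from the last class, so these shares are set by the rule in part.

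AT1G80130, singled out after its values were seen, was the extreme of the genes that were higher under cadmium. It read 8.24, 8.33 and 7.55 in wild type and 9.13, 9.22 and 9.25 in slim1-1 under cadmium, and 4.43 to 4.96 on the arsenite arrays, so its metal differences were 4.58 and 5.53. AT1G49570, singled out in the same way, read 6.43, 6.29 and 6.18 in wild type and 7.33, 7.35 and 7.60 in slim1-1, and 4.56 to 5.12 under arsenite. AT4G23680 read 10.01, 10.01 and 10.05 in wild type under cadmium and 10.95, 11.08 and 10.98 in slim1-1, and both genotypes lay lower under arsenite, at 9.28 to 9.95. AT4G33550, AT5G14650, APL3, EXLB1, SWEET13, SAG29 and ATC were among the others in the same class. BETA-VPE, at 0.96 in wild type and 2.39 in slim1-1, fell among those past the margin in slim1-1 alone.

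At the other end lay STZ and AT4G30170, whose metal differences were -4.55 in wild type and -2.70 in slim1-1. AT4G30170 read 10.06 to 11.13 under arsenite, and 5.46, 5.45 and 4.84 in wild type against 6.86, 6.31 and 6.71 in slim1-1 under cadmium. Of the other loci in this class, picked after their values were seen, AT4G26010 read 3.76, 4.26 and 3.86 in wild type and 4.52, 5.04 and 5.50 in slim1-1 under cadmium, and 8.10 to 9.16 under arsenite. AT5G10695 read 6.80, 6.91 and 6.62 against 7.59, 7.94 and 8.0, and 10.53 to 11.12 under arsenite. XTH19, BGLU44, UPB1 and PDF2.5 were in this class too. LTI30, CYP71B26, B120, AT2G46140 and AT3G44450 were lower in wild type past the margin and within it in slim1-1. Of 7 root marker genes listed, the root hair expansins EXPA7 and EXPA18 were matched to a probe set, and both were lower under cadmium than under arsenite, at -1.74 and -1.21 in wild type and -1.32 and -0.66 in slim1-1. Between the genotypes under cadmium EXPA7 differed by 0.41 and EXPA18 by 0.50, with group means of 3.66 to 4.51, and neither passed limma (adjusted p = 0.139 and 0.138). The 1 leaf marker of 7 that was matched, RCA, had a genotype difference of -0.04 under cadmium. The part of root cells in the values of the set was not tested.

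**Figure D4:**
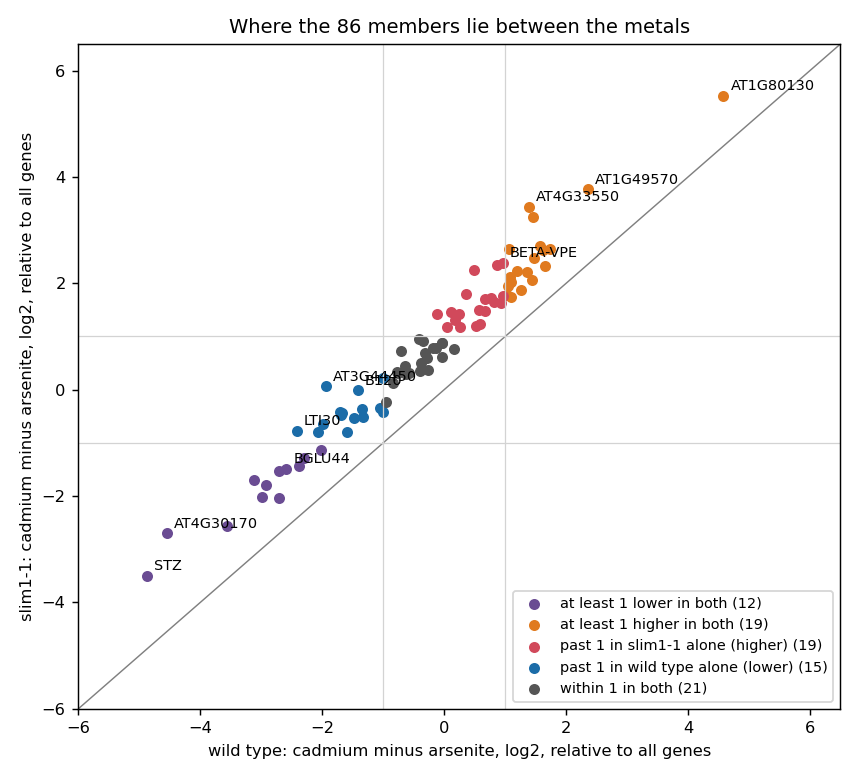
Cadmium minus arsenite in wild type (horizontal axis) and in slim1-1 (vertical axis), log2 and relative to the median of all genes, for the 86 genes, coloured by class at a margin of 1. All points lie above the diagonal of equal differences, as the rule requires, and they stretch from STZ (-4.88 and -3.50) to AT1G80130 (4.58 and 5.53).

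The genes left out by name had larger differences under cadmium, with medians of 2.21 for the 5 heat-stress genes and 2.12 for the 4 anthocyanin genes. The limits turned round, for genes lower in slim1-1 under cadmium, were met by 74 genes with a median of -1.07. Of those 74, 21 were lower under cadmium than under arsenite in both genotypes and 6 higher in both, and 34 fell outside the classes used above. Among the 86 the first 2 counts were 12 and 19, and the shares over all genes were 5.62% and 2.55%. The 2 rules ask for opposite shifts of slim1-1 under cadmium, so they set these counts in part.

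The positions of the members in the genome are given as a description, with no count for other sets of genes beside them. Probe sets shared by several genes were not used, so close copies could be missing. Of 85 members placed in the order of the RefSeq genes, 2 pairs lay within 10 genes of each other, AT5G10695 with AT5G10770 and AT5G17760 with AT5G17820. Members had 76 directly adjacent genes that were measured and not members, with a median cadmium difference of 0.03. Of these 9 were higher in slim1-1 by limma, 11.8% against 6.62% of all genes, and 4 were lower. The 3 with a gene symbol among the 9 were XTH18, CYP71B34 and NQR, and AT5G16980, left out by name, was another.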

How the data were processed

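Total RNA of 12 seedling samples was hybridised to single-colour Affymetrix arrays. The deposited log2 values were made by the authors with RMA, per the submitters' processing notes, which name no version. Values of the 2 metals lie on different levels. Of 22810 probe sets, 13513 had 1 gene in the platform annotation, and the probe set with the highest mean stood for each of 13356 genes. Of these, 13286 matched the RefSeq table. No detection calls or probe intensities were used here. Precision is set by how few arrays each group has.

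The 4 group means were estimated together from the 12 arrays in R 4.3.3 by limma 3.58.1, using its moderated test, with Benjamini-Hochberg adjustment over all genes and a threshold of 0.05. The fit was tested on simulated data. The members, gene lists, families and tests were chosen with earlier results of these data known. Genes named are the 20 members with the largest cadmium difference, every other member with a name, members and genes nearest the limits, and genes of the lists and families. Deviations of same-numbered replicates of the 2 genotypes had correlations of -0.0026, 0.0952 and -0.0078 under cadmium. Under arsenite these were -0.334, 0.0303 and -0.226, and for replicates of unlike number they ran from -0.139 to 0.336. The numbers were not taken to pair samples, and the source of the arsenite correlations was not tested. Alternatives changed the normalisation, the spread estimate, the array weights, the limits of the rule and the replicates used. Promoter motifs and protein lengths were planned and not analysed here.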

Additional observations from a re-analysis of the deposited data

How the results depend on the processing

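The number of genes that met the rule was 38 with a cadmium limit of 1.0 and 54 among genes above the median level, 82 to 103 without 1 replicate, and 70 to 129 under the other settings tried. 45 of the 86 met the rule in all 12 settings without a replicate. The cadmium difference of each member stayed positive in every setting that fitted it, which the rule largely fixes by its demand for arrays without overlap. With genes above the median level alone 54 of the 86 were fitted. In the settings that fitted all 86, 71 to 86 passed limma under cadmium, 35 to 70 passed the interaction test, and up to 2 passed on the higher side and 2 on the lower under arsenite. Over all genes, limma called 1646 genes under cadmium, 140 under arsenite and 574 in the interaction. Leaving out 1 replicate gave 851 to 1794, 50 to 250 and 280 to 785 calls. Cadmium calls were 851 without slim1-1 cadmium replicate 2, and 958 and 966 without wild-type cadmium replicates 1 and 3. Arsenite calls were 50 and 88 without wild-type arsenite replicates 2 and 3, and 250 and 58 without slim1-1 arsenite replicates 1 and 2. Interaction calls were 280 and 348 without wild-type cadmium replicates 1 and 3, 311 without slim1-1 cadmium replicate 2, 281 and 334 without wild-type arsenite replicates 2 and 3, and 329 without slim1-1 arsenite replicate 2. With array weights the arsenite calls were 744 and the interaction calls 1184, and with the 6 arsenite arrays alone the arsenite calls were 14. With a replicate block within each metal the calls were 1019, 85 and 267, and 77 of the 86 passed under cadmium. A replicate block over both metals cannot move the median metal differences of -0.159 and 0.784 in this balanced design. Shifting arrays to a common median turned the split of cadmium calls from 884 higher and 762 lower to 652 higher and 1057 lower, and left 75 genes in the set, 72 of them shared. The median metal difference in wild type was 0.0522 with array medians subtracted and -1.29 as deposited, and lay between -0.201 and -0.0978 without 1 replicate. In slim1-1 it was 0.975, -0.377 and 0.689 to 0.837. A margin of 0.5 put 30 genes higher in both genotypes and 2 within the margin in both. The cause of these changes was not tested. The promoter motif alternative was not run.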

Other observations

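Few genes of the lists drawn up beside the set could be matched to a probe set in the gene annotation used here, so most of these pathways were not analysed. The lists do not hold the heat-stress and anthocyanin loci that were left out by name, which were matched. Of 13 sulfur limitation genes, 2 were measured. SDI2, a sulfur deficiency protein, was higher in slim1-1 under both metals, by 1.63 under cadmium and 1.89 under arsenite (limma adjusted p = 5.29e-05 and 0.000352). BGLU28, a glucosidase of the same response, was 2.90 lower in slim1-1 than in wild type under cadmium. Its group means were 9.21 in wild type and 6.31 in slim1-1 under cadmium, and 4.52 and 5.20 under arsenite. Of 15 metal handling genes, ZIP9 and MT1C were measured and neither passed under either metal. Of 20 heat-stress genes in the list, 3 were measured, and ROF2 and HSP15.7 were higher in slim1-1 under cadmium, by 1.94 and 0.70. Of 8 unfolded protein genes, BZIP60 and ERDJ3B were measured and neither passed. The jasmonate gene JMT did not pass. UGT78D2, a flavonoid gene, was 0.58 higher in slim1-1 under cadmium (limma adjusted p = 0.0203), a call lost in 4 alternative settings. Of 13 dehydration genes, COR15A and COR47 were measured, and COR47 passed. The senescence, salicylate, phosphate, suberin and seed lists had no gene matched.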
